A study of Mus musculus with 17 samples.

Results

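The genes of glycolysis and of the hypoxia response were followed in CD8 T cells from mouse lung tumours, across genotype and position in the tumour. The set was chosen by name and not by measured level, but with earlier results of these data known. It holds 34 genes: 2 glucose transporters, 15 glycolytic enzymes, 4 genes of lactate production and export and the 2 members of the pyruvate dehydrogenase switch. The rest are 3 oxygen-sensing genes and 8 other targets of the hypoxia-inducible factor (HIF). All 34 were among the 27240 gene symbols counted, and all 34 were among the 20137 genes with enough counts to be tested.

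Glycolysis converts glucose to pyruvate in the cytosol. T cells that have been activated and divide take up more glucose and turn much of the pyruvate into lactate through lactate dehydrogenase, and monocarboxylate transporters carry the lactate out. Pyruvate enters mitochondria for oxidation through the pyruvate dehydrogenase complex, which kinases such as PDK1 switch off and phosphatases such as PDP1 switch on. HIF1, built from HIF1A and ARNT, binds DNA and raises the transcription of most glycolytic enzymes when oxygen is low. With oxygen present, prolyl hydroxylases (EGLN1, EGLN3) mark HIF1A for destruction, so that HIF1A is controlled mainly at the protein level. T cell receptor and growth signals also raise the same enzymes with oxygen present.

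Bulk RNA sequencing gave 17 libraries in 4 groups. WT core (5 libraries: F164, H719, H873, H876 and a pool) and WT rim (2 libraries: H874 and H877) came from wild-type mice. KO core (6 libraries: F219, F318, F319, F322, F86 and O) and KO rim (4 libraries: F15, F322, F86 and O) came from animals whose endothelium lacks PD-L1, the partner through which PD-1 restrains T cells. Core stands for tissue enriched for the tumour core (macroscopic nodules) and rim for tissue enriched for the rim (nodules in the parenchyma), so neither is a pure dissection. The deleted cells are endothelial, and the T cells profiled were not the cells targeted. The purity of the sort, the driver of the deletion, the tumour model, the age of the mice and the animals in the pool were not given in the sources used here. Nothing in the labels says that libraries came from separate animals, so p-values measure the spread between these libraries, which may be technical.

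Libraries held 21767045 to 32566456 counts. Levels are CPM, counts scaled to library size with TMM factors, and differences are log2 fold changes. A call means an adjusted p under 0.05 in edgeR's quasi-likelihood test with Benjamini-Hochberg adjustment over all 20137 genes. Both F322 and both O libraries carried Y-linked reads (449.5 to 511 CPM), the WT core pool carried a lower amount (103 CPM), and the 2 WT rim libraries had none. The 10 T cell and CD8 identity genes summed to 5132 to 9971 CPM over the libraries, with none at 0 in a group. Macrophage and monocyte markers (16 genes) summed to 2256 to 6480 CPM in WT core, 2152 to 6290 in KO core, 1321 and 2654 in WT rim and 938.5 to 8446 in KO rim. Other cell types were thus present in the RNA, and in bulk libraries fewer cells of a type and less RNA per cell cannot be told apart.

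Promoters of 6 of these genes are shown to set the HIF motif beside the expression values: the first 5, all called between core and rim in WT, carry the core letters of the hypoxia response element, ACGTG, and the sixth, Tpi1, has the largest difference between core and rim and lacks them. The 6 were picked for display and show no link between motif and call. Called Eno1, Pfkl and Gpi1 also lacked the letters, and uncalled Hif1a, Egln1, Ankrd37 and Hk2 carried them. Each is the 250 bases before a RefSeq transcript start in GRCm38.p6, 5′ to 3′ on the strand of the gene, with ACGTG on either strand in capitals. For Ldha and Slc16a3 that start lies inside the annotated span of the gene. The palindrome CACGTG, which is also the E-box bound by factors of the MYC family, holds a match on each strand and is counted on both.
Ldha (chr7:46845554-46845803, forward strand): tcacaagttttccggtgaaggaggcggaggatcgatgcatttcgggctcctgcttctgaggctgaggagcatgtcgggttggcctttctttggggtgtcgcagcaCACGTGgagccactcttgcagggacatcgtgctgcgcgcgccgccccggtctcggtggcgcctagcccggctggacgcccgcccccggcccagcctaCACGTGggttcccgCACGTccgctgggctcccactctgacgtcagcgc
Pgk1 (chrX:106186850-106187099, forward strand): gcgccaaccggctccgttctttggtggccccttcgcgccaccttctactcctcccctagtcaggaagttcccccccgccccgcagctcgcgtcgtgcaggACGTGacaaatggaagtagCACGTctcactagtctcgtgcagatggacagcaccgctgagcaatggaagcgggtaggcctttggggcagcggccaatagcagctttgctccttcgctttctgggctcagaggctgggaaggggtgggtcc
Slc16a3 (chr11:120948817-120949066, forward strand): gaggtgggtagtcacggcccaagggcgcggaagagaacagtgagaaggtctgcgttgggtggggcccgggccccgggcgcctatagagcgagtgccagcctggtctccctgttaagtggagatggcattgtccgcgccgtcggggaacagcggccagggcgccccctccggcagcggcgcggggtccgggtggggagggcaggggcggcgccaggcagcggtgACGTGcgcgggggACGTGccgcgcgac
Bnip3 (chr7:138909507-138909756, reverse strand): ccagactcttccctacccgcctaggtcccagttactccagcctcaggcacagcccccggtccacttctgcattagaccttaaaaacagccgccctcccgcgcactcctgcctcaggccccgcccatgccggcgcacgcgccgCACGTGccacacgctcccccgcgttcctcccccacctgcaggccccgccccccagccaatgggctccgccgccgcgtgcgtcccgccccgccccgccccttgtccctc
Pgam1 (chr19:41911621-41911870, forward strand): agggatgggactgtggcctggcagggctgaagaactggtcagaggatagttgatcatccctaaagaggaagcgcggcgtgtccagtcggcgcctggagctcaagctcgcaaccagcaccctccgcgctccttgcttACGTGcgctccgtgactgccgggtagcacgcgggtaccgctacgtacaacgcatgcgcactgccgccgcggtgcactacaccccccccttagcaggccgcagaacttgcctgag
Tpi1 (chr6:124814159-124814408, reverse strand): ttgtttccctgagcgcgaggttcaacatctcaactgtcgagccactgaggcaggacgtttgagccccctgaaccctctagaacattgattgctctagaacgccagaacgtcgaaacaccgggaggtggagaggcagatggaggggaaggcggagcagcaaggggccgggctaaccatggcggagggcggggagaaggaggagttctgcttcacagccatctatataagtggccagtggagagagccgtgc

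Ldha held 3 separate capital stretches with 5 matches in the window shown and 0 in its other window, Pgk1 and Slc16a3 held 2 matches each, Bnip3 held 2 in 1 stretch, and Pgam1 held 1. Of the 31 genes of the set with a RefSeq window, 20 (64.5%) held ACGTG in at least 1 window, against 4998 of all 27025 genes (18.5%) and 3491 of 17492 protein-coding genes (20%). Counted by window, which does not favour genes with several starts, the share was 50% (24 of 48) against 16.6% of all windows and 17.8% of protein-coding windows. The set was named in part for known HIF targets, so this share is not an independent result. A match marks letters and not a bound site, and a window without one says nothing of the factor.

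On a per-length scale (CPM per kb of exon, the only scale on which genes are compared here), Ldha and 4 enzymes stood highest in WT core. Ldha, the lactate dehydrogenase subunit that favours lactate formation, led every group, with a mean of 531 CPM per kb in WT core and 354 in WT rim. In WT core it was followed by the aldolase Aldoa at 330.0, the pyruvate kinase gene Pkm at 289, the enolase Eno1 at 256 and the triosephosphate isomerase Tpi1 at 154 CPM per kb. Tpi1 ranked 5 of 34 in WT core, 5 in KO core, 8 in KO rim and 12 in WT rim. Gapdh, often taken as a constant reference, was listed at only 10.3 CPM per kb in WT core. Of its 50-base transcript stretches, 25.1% occur in other genes too, and the part of this in its level was not tested. The same share was 53.9% for Pgk1, 47.2% for Bnip3, 36.2% for Pgam1, 26% for Eno1, 25.8% for Pkm, 15.8% for Gpi1, 9.26% for Ldha, 5.13% for Aldoa and 4.18% for Tpi1. How reads from shared stretches were assigned was not given in the sources used here, so these values are uncertain. The main sharer was counted at 1.75 CPM for Pgk1 (Pgk1-rs7), 1.71 for Pgam1 (Pgam1-ps2), 5.80 for Eno1 (Eno1b), 6.20 for Tpi1 (Tpi-rs11) and 1.06 for Gapdh (Gm7336) in WT core. For Ldha the shared stretches involved 328 other genes, with 3.08% of all its stretches in Gm5452. For Gpi1 they involved 122, with 8.29% in Gm26762 alone. The main sharers of Gpi1 (Gm26762), Bnip3 (AC160336.1) and Pkm (Gm49759) were not among the symbols counted. Pdp1, Slc16a3, Pdk1 and Hk2 share none.

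Core against rim in WT cells asks whether the pathway differs with position in the tumour. In WT core, 11 of the 34 genes were higher than in WT rim and 1 was lower, against 3.86% of all 20137 genes called (2.1% higher and 1.76% lower). The set was named with earlier results of these data known, so its gap from all genes is descriptive only. The median log2 difference was 0.42 over the 34 genes and 0.03 over all genes, and 27 of the 34 were positive. Enzymes carried most of this: 8 of 15 were called higher and all 15 were positive, with a median of 0.84. No glucose transporter and no oxygen-sensing gene was called. The 5 WT core libraries lay wholly above the 2 WT rim libraries for 15 of the 34 genes and wholly below for 1, where 10.1% and 9.68% of all genes did so (19.8% together). Without WT rim H874 the calls dropped from 12 to 6 (5 higher and 1 lower), and with only the WT libraries in the fit they numbered 7 (6 higher and 1 lower). The median of the 34 was 0.60 without H874 and 0.70 without H877.

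**Figure D1:**
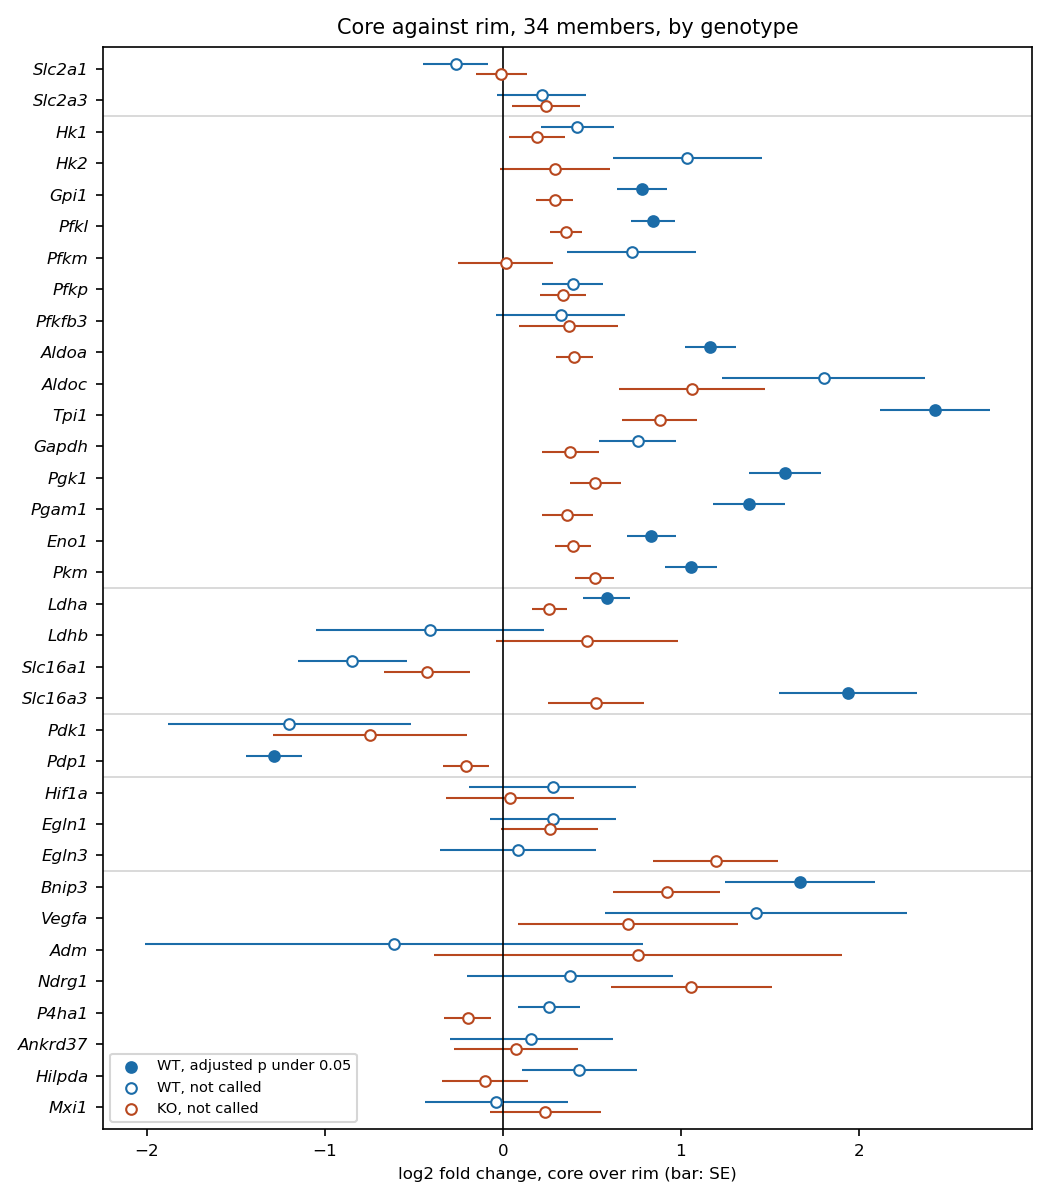
Log2 fold change of core over rim (x axis) for each of the 34 genes (y axis, grouped by role), WT in blue and KO in red, with bars of 1 SE and filled points where the adjusted p was under 0.05. Filled points occur in WT for 12 genes and in KO for 0, and all 15 enzymes lie right of zero in both genotypes.

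Among the called enzymes, the largest differences lay in the middle of the pathway. Tpi1 (chr6:124810586-124814158 in GRCm38), which interconverts the 2 triose phosphates made by aldolase, measured 526 CPM in H873, 342 in H876, 348 in F164, 458 in the pool and 445 in H719 of WT core, and 84.5 in H877 and 73.1 in H874 of WT rim. Each core value was several times each rim value. The difference was 2.43 (SE 0.31, adjusted p = 0.00195), the largest of the 34. Aldoa (chr7:126795234-126800994), which splits fructose bisphosphate, measured 990.3 CPM in H873, 854 in H876, 850.0 in F164, 1055 in the pool and 1053 in H719 of WT core, and 433 in H877 and 423 in H874 of WT rim. The 2 rim libraries differed by little and lay far below the core range, and at 1.17 (SE 0.14, adjusted p = 0.00195) Aldoa ranked 1 of 20137 genes by p. Pgk1 (chrX:106187100-106203699), the first step that yields ATP, measured 332 CPM in H873, 229.9 in H876, 216 in F164, 299 in the pool and 287 in H719 of WT core, and 85.5 in H877 and 96.3 in H874 of WT rim. Its groups did not overlap, with a difference of 1.59 (SE 0.20, adjusted p = 0.00195).

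Pgam1 (chr19:41911871-41918665), the phosphoglycerate mutase, measured 92.6 CPM in H873, 82.99 in H876, 79.1 in F164, 90.5 in the pool and 80.5 in H719 of WT core, and 32.2 in H877 and 33.05 in H874 of WT rim. Core was tightly grouped and wholly above rim, by 1.38 (SE 0.20, adjusted p = 0.0034). Pkm (chr9:59656576-59679372), whose product makes pyruvate, measured 1693 CPM in H873, 1296 in H876, 1304 in F164, 1527 in the pool and 1406 in H719 of WT core, and 689.5 in H877 and 699 in H874 of WT rim. All 5 core libraries exceeded both rim libraries, by 1.06 (SE 0.15, adjusted p = 0.00253). Eno1 (chr4:150236708-150248879), which makes phosphoenolpyruvate, measured 1586 CPM in H873, 1182 in H876, 1291 in F164, 1464 in the pool and 1353 in H719 of WT core, and 823 in H877 and 718 in H874 of WT rim. The gap between H876 and the higher rim library was the narrowest part of a separation of 0.83 (SE 0.14, adjusted p = 0.00564).

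The 2 called enzymes of upper glycolysis differed by under 1 on the log2 scale. Pfkl (chr10:77986947-78009807), a subunit of the rate-setting phosphofructokinase, measured 188 CPM in H873, 180.1 in H876, 169 in F164, 193 in the pool and 193 in H719 of WT core, and 106 in H877 and 100.2 in H874 of WT rim. These groups were apart by 0.84 (SE 0.12, adjusted p = 0.0034). Gpi1 (chr7:34201327-34230336), the glucose phosphate isomerase, measured 504 CPM in H873, 492 in H876, 408 in F164, 502 in the pool and 491 in H719 of WT core, and 263 in H877 and 295 in H874 of WT rim. F164 was the lowest core library and still exceeded both rim libraries, with a difference of 0.78 (SE 0.14, adjusted p = 0.00774). The other 7 enzymes were not called: Hk1 and Hk2 (hexokinases), Pfkm and Pfkp (phosphofructokinase subunits), Pfkfb3 (which makes the activator of phosphofructokinase), Aldoc and Gapdh. Their log2 differences ran from 0.32 for Pfkfb3 to 1.80 (SE 0.57, adjusted p = 0.0924) for Aldoc. For Hk2, Pfkm, Aldoc and Gapdh the core libraries nonetheless lay wholly above the rim libraries, with Gapdh at 0.76 (SE 0.21, adjusted p = 0.0606). The transporters Slc2a1 and Slc2a3, which bring glucose into the cell, stood at -0.26 (SE 0.18, adjusted p = 0.479) and 0.22 (SE 0.25, adjusted p = 0.707) with overlapping groups.

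Of the lactate genes, Ldha and Slc16a3 were higher in WT core, and Ldhb and Slc16a1 did not pass the test. Slc16a3 (chr11:120948484-120959000), the export carrier MCT4 and a HIF target, measured 100.2 CPM in H873, 46.3 in H876, 63.8 in F164, 64.9 in the pool and 60.7 in H719 of WT core, and 21.4 in H877 and 13.6 in H874 of WT rim. The lowest core library exceeded the higher rim library, and the difference was 1.94 (SE 0.39, adjusted p = 0.0139). Ldha (chr7:46842274-46855627) measured 1966 CPM in H873, 1686 in H876, 1491 in F164, 1841 in the pool and 1807 in H719 of WT core, and 1106 in H877 and 1239 in H874 of WT rim. Ldha had the smallest of the called differences, 0.58 (SE 0.13, adjusted p = 0.0234), and its groups did not overlap. Slc16a1 (MCT1), which moves lactate in either direction, was at -0.84 (SE 0.30, adjusted p = 0.143), with CPM of 110.0 in H877 and 252 in H874 in WT rim. Ldhb, the subunit that favours pyruvate formation, was at -0.41 (SE 0.64, adjusted p = 0.803) with overlapping groups. Slc16a3 lost its call with voom, with only the WT libraries in the fit and without WT rim H874, and Ldha also without H877 and without the libraries with Y-linked reads.

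**Figure D2:**
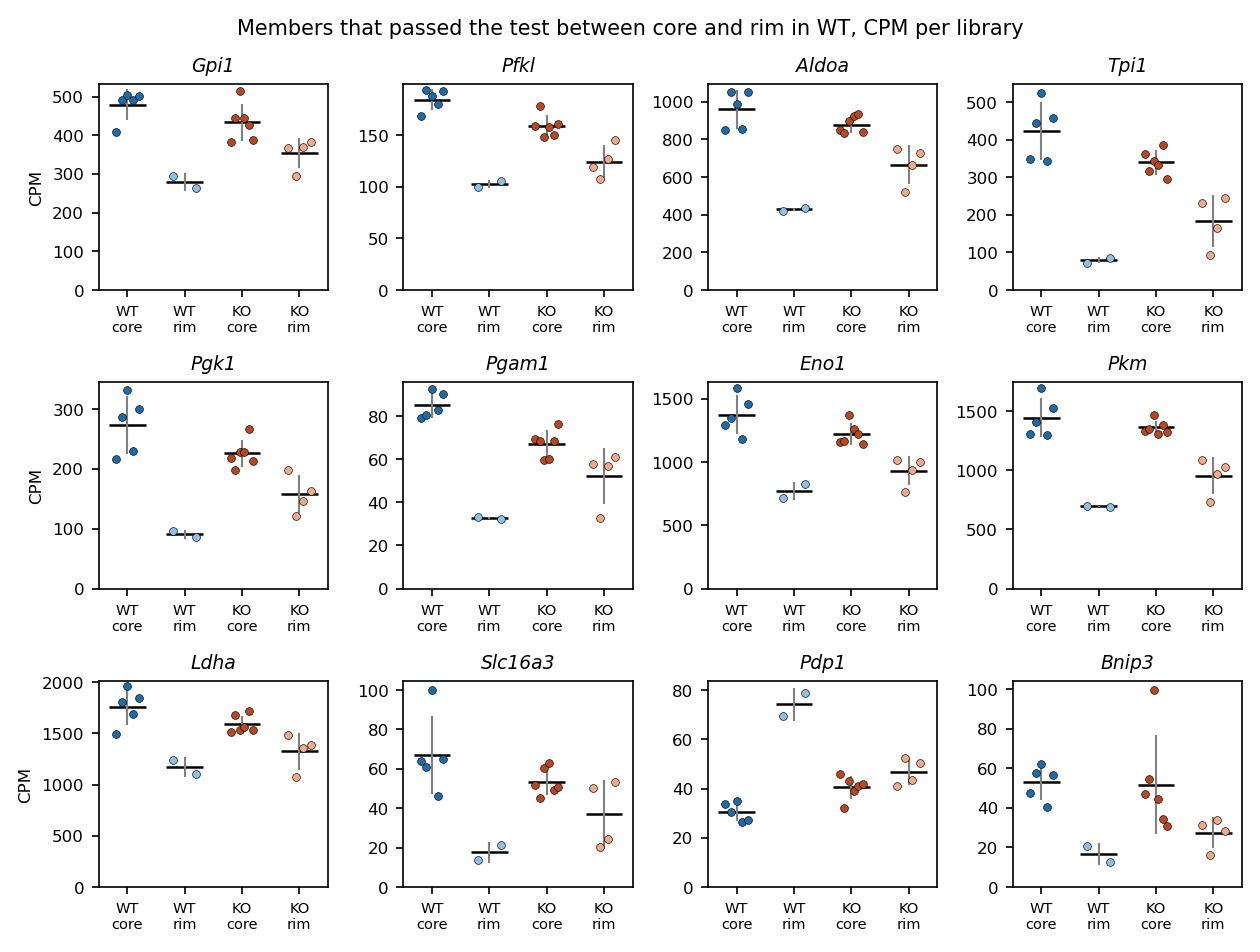
CPM (y axis, from 0) in each library (points) of the 4 groups (x axis) for the 12 genes called between core and rim in WT, with the group mean (black line) and SD (grey bar). The 2 WT rim libraries lie below all WT core libraries for 11 genes and above them for Pdp1, and KO rim spreads between the 2 levels for most of the genes.

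At the pyruvate dehydrogenase switch the phosphatase was lower in core. Pdp1 (chr4:11958183-11966450), which reactivates the complex, measured 34.8 CPM in H873, 26.3 in H876, 33.8 in F164, 27.04 in the pool and 30.6 in H719 of WT core, and 79.03 in H877 and 69.6 in H874 of WT rim. Every core value was below both rim values, and the difference of -1.28 (SE 0.16, adjusted p = 0.00195) ranked 3 of 20137 by p. Pdk1 (chr2:71873215-71903858), the kinase that inactivates the complex and a HIF target, measured 19.9 CPM in H873, 29.1 in H876, 30.9 in F164, 43.8 in the pool and 87.2 in H719 of WT core, and 22.8 in H877 and 171 in H874 of WT rim. H874 exceeded every core library and H877 lay below 4 of the 5, and the difference of -1.198 (SE 0.68, adjusted p = 0.381) was not called. Beyond the set, 1 of 11 tested genes of the complex and the pyruvate carrier was called, where 3.86% of all genes were. It was Pdp2, another phosphatase, lower in core, at 32.9 ± 6.80 CPM (SD, n = 5) in WT core and 68.3 ± 2.94 (SD, n = 2) in WT rim. Its difference was -1.06 (SE 0.26, adjusted p = 0.032) in edgeR's test.

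Oxygen-sensing genes and most other HIF targets did not pass the test in WT. Hif1a (chr12:73901324-73947554) measured 419 CPM in H873, 136 in H876, 196 in F164, 734 in the pool and 641 in H719 of WT core, and 360.3 in H877 and 341 in H874 of WT rim. Core libraries spread on both sides of rim, with F164 and H876 low, and the difference was 0.28 (SE 0.47, adjusted p = 0.821). F164 and H876 also had the lowest summed T cell and CD8 identity genes of WT core (6659 and 5132 CPM). Their macrophage and monocyte markers were the highest there (6434 and 6480 CPM). The part of this in the Hif1a spread was not tested. Egln1 (chr8:124908587-124949254) measured 15.8 CPM in H873, 15.7 in H876, 12.2 in F164, 14.98 in the pool and 33.2 in H719 of WT core, and 13.4 in H877 and 16.8 in H874 of WT rim. H719 lay far above rim and the other 4 core libraries near it, and the difference was 0.28 (SE 0.35, adjusted p = 0.739). Egln3 (chr12:54178981-54203874), itself a HIF target, measured 11.2 CPM in H873, 19.04 in H876, 7.25 in F164, 8.07 in the pool and 9.96 in H719 of WT core, and 10.1 in H877 and 10.8 in H874 of WT rim. Those groups overlapped, at 0.09 (SE 0.44, adjusted p = 0.958).

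Among the 8 other HIF targets, 1 was called, where 3.86% of all genes were. Bnip3 (chr7:138890836-138909506), which marks mitochondria for removal, measured 62.4 CPM in H873, 40.3 in H876, 47.5 in F164, 56.3 in the pool and 57.8 in H719 of WT core, and 12.6 in H877 and 20.6 in H874 of WT rim. The groups did not overlap and the difference was 1.67 (SE 0.42, adjusted p = 0.0365), the highest adjusted p of the 12 calls. The call was lost in 9 of the 15 alternative settings, among them leaving out H719, H873, the pool, H874 or H877. The other 7 had log2 differences from -0.61 for Adm to 1.42 for Vegfa, and their groups overlapped. Adm, a vasodilator peptide, was near the limit of counting, with 0 counts in KO core F86 and KO rim F86. Vegfa, the endothelial growth factor, ran from 1.58 to 18.7 CPM in WT core and from 2.44 to 5.04 in WT rim. The median over the 8 was 0.32, against 0.84 for the enzymes.

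**Figure D3:**
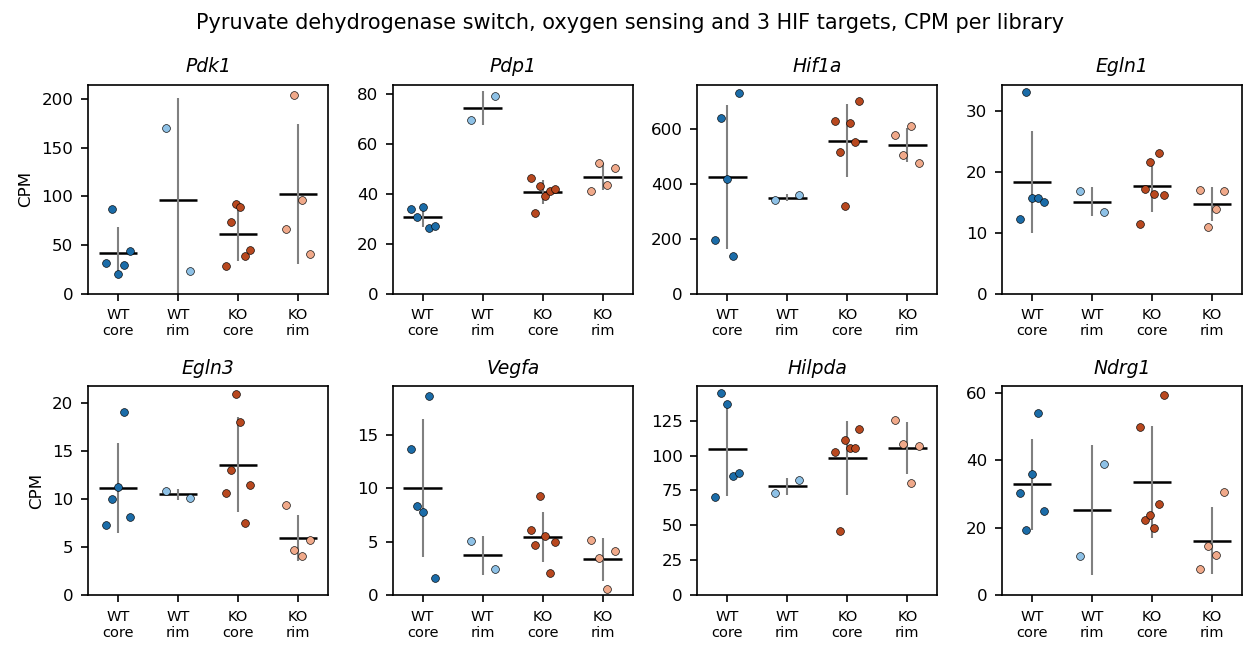
CPM (y axis, from 0) in each library (points) of the 4 groups (x axis) for Pdk1, Pdp1, Hif1a, Egln1, Egln3, Vegfa, Hilpda and Ndrg1, with the group mean (black line) and SD (grey bar). WT core and WT rim overlap for each of these except Pdp1, and Pdk1 and Hif1a spread several fold among libraries of 1 group.

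Related genes outside the set were read from the same fit in WT, where 3.86% of all genes were called. A single call in a list of 18 or 14 genes is near that share. Of 18 tested further glycolysis isozymes and regulators, 1 was called: Tigar, which lowers the activator of phosphofructokinase, lower in core at -1.06 (SE 0.25, adjusted p = 0.0297). Of 8 pentose phosphate genes, 2 were called higher in core, Pgd at 0.80 (SE 0.17, adjusted p = 0.0204) and Tkt at 0.70 (SE 0.16, adjusted p = 0.0288). Both belong to the branch that makes NADPH and ribose from glucose. Of 26 further HIF targets, 3 were called higher and 2 lower. Gys1, the glycogen synthase, was at 1.46 (SE 0.37, adjusted p = 0.0396), Fam162a at 1.28 (SE 0.33, adjusted p = 0.0391) and the cytokine Mif at 0.85 (SE 0.17, adjusted p = 0.0148). The histone demethylase Kdm3a was at -1.07 (SE 0.20, adjusted p = 0.0101) and the mitophagy gene Bnip3l, a relative of Bnip3, at -0.39 (SE 0.11, adjusted p = 0.0464). Known HIF targets were thus called in both directions. Of 9 genes of the HIF machinery, Cited2, which competes with HIF1A for its coactivator, was lower at -1.28 (SE 0.34, adjusted p = 0.044). Arnt2 was called higher on 478 counts summed over WT core and 1 count over WT rim, and no fold is given for it. Of 14 growth-signalling genes, the transcription factor Foxo1 was called lower at -1.11 (SE 0.28, adjusted p = 0.0398). The rest of that list, Myc included, were not called.

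Cell cycle genes and markers of other cell types were read in the same libraries, beside the 3.86% of all genes called in WT. Of 14 cell cycle genes, 12 were called higher in WT core, the largest of these being Ccnb2 at 2.73 (SE 0.38, adjusted p = 0.00253). Ccna2 and Pcna were not called, at 2.92 (SE 0.92, adjusted p = 0.0916) and 0.09 (SE 0.18, adjusted p = 0.865). Their summed level was 1509 to 2782 CPM in WT core and 635.5 and 734.5 in WT rim, 1230 to 2670 in KO core and 884 to 1683 in KO rim. Of 16 macrophage and monocyte markers, 2 were called higher in WT core, 15 were positive and the median log2 difference was 2.04. Lung epithelium and tumour markers (12 tested, none called) summed to 116 to 645 CPM in WT core and to 43.0 and 167 in WT rim. CD4 and regulatory T cell markers (6 tested, none called) summed to 318.8 to 719.4 and to 190.4 and 330.4 CPM. The part of these in the enzyme differences was not tested.

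In KO cells the same site contrast called none of the 34 genes, and none of all 20137 (0% called) in edgeR's test. At an unadjusted p under 0.05 there were 15 of the 34 and 1600 of all genes (7.95%). DESeq2 called 2 of the 34, Tpi1 and Pkm, and voom none. All 15 enzymes were positive, with a median log2 difference of 0.37, and 28 of the 34 were positive with a median of 0.35 (all genes 0.03). The 6 KO core libraries lay wholly above the 4 KO rim libraries for Pfkl, Aldoa, Tpi1, Pgk1, Eno1, Pkm and Ldha, 7 of the 34 genes, where 0.8% of all genes did so. No gene of the set lay wholly below, and 1.6% of all genes had groups that did not overlap in either direction. In the same contrast 13 of 14 cell cycle genes were positive with a median of 0.56, and 10 of 16 macrophage markers with a median of 0.12. Their part in the enzyme values was not tested.

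Tpi1 was 295 CPM at the lowest, 337 at the median and 387 at the highest of the KO core libraries, and 245 in O, 93.5 in F322, 232 in F15 and 166 in F86 of KO rim. F322 stood apart within KO rim, close to the WT rim values. The log2 difference was 0.88 (SE 0.21, adjusted p = 0.62) in edgeR's test. Aldoa was 833 CPM at the lowest, 872.6 at the median and 933 at the highest in KO core, and 729.5 in O, 520.4 in F322, 749.6 in F15 and 662 in F86 of KO rim. The groups did not overlap, at 0.40 (SE 0.10, adjusted p = 0.62). Pkm was 1308 CPM at the lowest, 1344 at the median and 1470.0 at the highest in KO core, and 1031 in O, 729 in F322, 1087 in F15 and 965 in F86 of KO rim. It had the smallest p of the 34 here, with 0.52 (SE 0.11, adjusted p = 0.572). Pgk1 was 199 CPM at the lowest, 224 at the median and 266 at the highest in KO core, and 162 in O, 122 in F322, 198 in F15 and 147 in F86 of KO rim. F15 came near the lowest core library, and the difference was 0.52 (SE 0.14, adjusted p = 0.62).

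Eno1 was 1146 CPM at the lowest, 1198 at the median and 1371 at the highest in KO core, and 999 in O, 767 in F322, 1018 in F15 and 941 in F86 of KO rim, with 0.39 (SE 0.10, adjusted p = 0.62). Pfkl was 148 CPM at the lowest, 158 at the median and 179 at the highest in KO core, and 145 in O, 107 in F322, 119 in F15 and 127 in F86 of KO rim, with 0.35 (SE 0.09, adjusted p = 0.62). Both were apart, Pfkl narrowly, with its lowest core library just above rim O. Ldha was 1512 CPM at the lowest, 1546 at the median and 1714 at the highest in KO core, and 1391 in O, 1070.0 in F322, 1485 in F15 and 1354 in F86 of KO rim, with 0.26 (SE 0.10, adjusted p = 0.62). F15 came closest to the KO core range. Pgam1 was 59.6 CPM at the lowest, 68.4 at the median and 76.3 at the highest in KO core, and 61.03 in O, 32.9 in F322, 57.6 in F15 and 57.1 in F86 of KO rim, with 0.36 (SE 0.14, adjusted p = 0.62). Gpi1 was 384 CPM at the lowest, 436 at the median and 514 at the highest in KO core, and 384 in O, 296 in F322, 368 in F15 and 369 in F86 of KO rim, with 0.29 (SE 0.10, adjusted p = 0.62). For these genes F322 was again the lowest rim library, and for Pgam1 and Gpi1 the top of rim reached into core.

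Slc16a3 was 45.4 CPM at the lowest, 51.3 at the median and 62.9 at the highest in KO core, and 53.6 in O, 20.4 in F322, 50.4 in F15 and 24.1 in F86 of KO rim, with 0.53 (SE 0.27, adjusted p = 0.647). KO rim divided into a high pair (F15 and O) and a low pair (F322 and F86), the high pair within the core range. Macrophage and monocyte markers were also higher in F15 (4642 CPM) and O (8446) than in F322 (1361) and F86 (938.5). Their part in the Slc16a3 values was not tested. Bnip3 was 30.8 CPM at the lowest, 45.5 at the median and 99.6 at the highest in KO core, and 28.4 in O, 16.1 in F322, 31.2 in F15 and 33.8 in F86 of KO rim, with 0.92 (SE 0.30, adjusted p = 0.62). Pdp1 was 32.3 CPM at the lowest, 41.5 at the median and 46.1 at the highest in KO core, and 50.4 in O, 52.3 in F322, 41.2 in F15 and 43.4 in F86 of KO rim, with -0.21 (SE 0.13, adjusted p = 0.734). Both overlapped between sites. Pdk1 was 28.3 CPM at the lowest, 58.9 at the median and 92.2 at the highest in KO core, and 40.8 in O, 205 in F322, 66.7 in F15 and 96.8 in F86 of KO rim, with -0.75 (SE 0.54, adjusted p = 0.807). F322 was its highest library of all 17. Hif1a was 319.2 CPM at the lowest, 588 at the median and 704 at the highest in KO core, and 475 in O, 506 in F322, 578 in F15 and 612 in F86 of KO rim, with 0.04 (SE 0.36, adjusted p = 0.996). Egln1 was 11.5 CPM at the lowest, 16.8 at the median and 23.1 at the highest in KO core, and 16.8 in O, 11.01 in F322, 16.99 in F15 and 13.97 in F86 of KO rim, with 0.26 (SE 0.27, adjusted p = 0.9). Hif1a and Egln1 overlapped widely between sites. Egln3 was 7.47 CPM at the lowest, 12.2 at the median and 20.9 at the highest in KO core, and 5.68 in O, 4.66 in F322, 9.32 in F15 and 4.03 in F86 of KO rim, with 1.196 (SE 0.35, adjusted p = 0.62). F15 overlapped the core range and the other 3 rim libraries were below it.

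The 11 genes called higher in WT core give one level per library, the mean of their log2 CPM, and the KO libraries played no part in choosing them beyond the shared estimate of spread. It was 8.27 to 8.67 in WT core, 8.14 to 8.39 in KO core, 7.16 and 7.15 in WT rim, and 7.96 in F15, 7.95 in O, 7.74 in F86 and 7.28 in F322 of KO rim. The place of the 7 WT libraries follows from that choice. All 6 KO core libraries ranked above all 4 KO rim libraries. F322 was the lowest KO rim library for each of the 11 genes. The other 3 KO rim libraries lay between F322 and the core libraries. F322 was also the lowest KO rim library for the summed cell cycle genes, at 884 CPM against 1328 in F15, 1359 in F86 and 1683 in O. The part of these in the levels was not tested.

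Whether the site effect differed between genotypes was tested as an interaction. None of the 34 was called, nor any of all 20137 (0% called). At an unadjusted p under 0.05 there were 10 of the 34 and 1547 of all genes (7.68%), with 5 of the 34 called by DESeq2 and none by voom. The site effect was larger in WT by a median of 0.35 over the 34 genes (all genes 0.01) and of 0.54 over the enzymes, 14 of 15 being positive. Pdp1 was at -1.08 (SE 0.21, adjusted p = 0.162), Tpi1 at 1.54 (SE 0.35, adjusted p = 0.25), Pgk1 at 1.07 (SE 0.24, adjusted p = 0.25), Aldoa at 0.76 (SE 0.17, adjusted p = 0.25) and Pgam1 at 1.02 (SE 0.24, adjusted p = 0.294). Those are the 5 that DESeq2 called. Without KO rim F322, edgeR called 3: Tpi1 at 1.77, Pgam1 at 1.196 and Aldoa at 0.87. A site effect called in WT and not in KO is therefore not shown to differ between them, and DESeq2 and the fit without F322 give other counts.

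**Figure D4:**
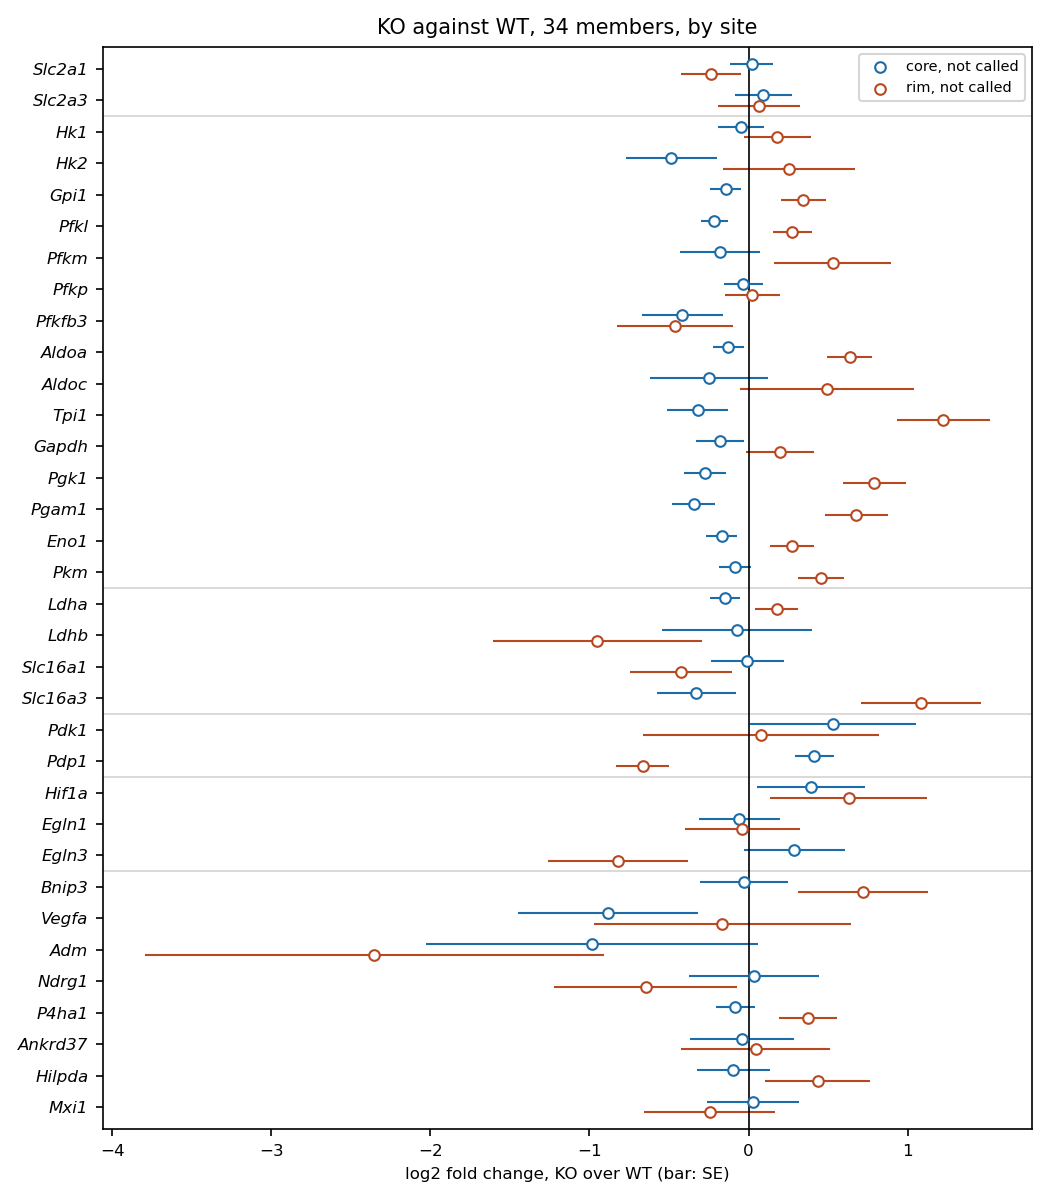
Log2 fold change of KO over WT (x axis) for each of the 34 genes (y axis, grouped by role), in core (blue) and in rim (red), with bars of 1 SE; no point passed the test. In core the 15 enzymes lie left of zero, and in rim 14 of the 15 lie right of it.

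KO against WT asks whether loss of endothelial PD-L1 goes with other levels of these genes in the T cells. In core it called none of the 34 and none of all genes (0% called). At an unadjusted p under 0.05 there were 3 of the 34 and 1244 of all genes (6.18%), and neither DESeq2 nor voom called any of the 34. Differences were small and mostly negative: 26 of the 34 and all 15 enzymes, with medians of -0.09 and -0.18 (all genes -0.01). Pdp1 was at 0.41 (SE 0.12, adjusted p = 0.796), Pgam1 at -0.34 (SE 0.13, adjusted p = 0.796) and Pfkl at -0.21 (SE 0.08, adjusted p = 0.796), the 3 with an unadjusted p under 0.05. Pgam1 was the 1 gene of the set whose groups did not overlap, where 0.397% of all genes did not: the highest KO core library (76.3 CPM) was below the lowest WT core library (79.1 CPM). Tpi1 was at -0.32 (SE 0.19, adjusted p = 0.915) and Slc16a3 at -0.33 (SE 0.25, adjusted p = 1). All 14 cell cycle genes were negative here too (median -0.19), as were 15 of 16 macrophage markers (median -0.40), with none called. Their part in the enzyme values was not tested.

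In rim the same contrast again called none of the 34 and none of all genes (0% called). At an unadjusted p under 0.05 there were 9 of the 34 and 1480 of all genes (7.35%). DESeq2 called 4 of the 34 (Aldoa, Tpi1 and Pgk1 higher and Pdp1 lower in KO) and voom none. Of the enzymes, 14 of 15 were positive, with a median of 0.34, and 23 of the 34 were positive with a median of 0.19 (all genes 0.01). Tpi1 was at 1.23 (SE 0.29, adjusted p = 0.245), Slc16a3 at 1.08 (SE 0.38, adjusted p = 0.515), Pgk1 at 0.79 (SE 0.20, adjusted p = 0.288), Aldoa at 0.64 (SE 0.14, adjusted p = 0.227) and Pdp1 at -0.67 (SE 0.17, adjusted p = 0.302). The 4 KO libraries lay wholly above the 2 WT libraries for Gpi1, Pfkl, Aldoa, Tpi1, Pgk1, Pkm, Hif1a and P4ha1, 8 of the 34, and wholly below for Ldhb, Pdp1, Egln3 and Adm, 4 of the 34, where 6.86% and 6.81% of all genes did so (13.7% together). In the same contrast all 14 cell cycle genes were positive with a median of 1.204, 13 of them at an unadjusted p under 0.05 and 10 with groups that did not overlap. Macrophage and monocyte markers were positive for 14 of 16 (median 1.65) and lung epithelium and tumour markers for 12 of 12 (median 1.68). None of these genes was called, and their part in the enzyme values was not tested. Without WT rim H877 the median of the 34 was 0.40. Without KO rim F322, edgeR called 3: Tpi1 at 1.44, Pgam1 at 0.84 and Aldoa at 0.73. This contrast reads the same 2 WT rim libraries as the site contrast in WT, so the 2 sets of values are not independent.

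Set side by side, Tpi1 averaged 424 ± 78.02 CPM in WT core (SD, n = 5), 339.6 ± 32.5 in KO core (n = 6), 184 ± 69.8 in KO rim (n = 4) and 78.8 ± 8.02 in WT rim (n = 2). The same order of group means held for all 11 genes called higher in WT core, with Aldoa, Pgk1, Pgam1 and Pkm among them. That WT core stood above WT rim follows from that choice. WT core and KO core libraries overlapped for each of the 11 except Pgam1, and none of the 11 was called between them. Pdp1 had the reverse order, from 74.3 ± 6.67 CPM in WT rim to 30.5 ± 3.85 in WT core.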

How the data were processed

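CD8 T cells of 4 labelled groups (WT core 5, KO core 6, WT rim 2, KO rim 4 libraries) were compared. The authors deposited raw read counts per gene symbol, 27240 symbols in 17 libraries, with no normalization. The tools listed in the submitters' processing notes are featureCounts, Subread 2.0.0, HISAT2, Bowtie2 2.4.5 and cutadapt 3.2, with GRCm38 and mm10 as builds. Settings, annotation and strandedness were not given in the sources used here.

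Fits to the counts used edgeR 4.0.16 in R 4.3.3: filterByExpr by group (20137 genes kept), TMM scaling, 1 quasi-likelihood fit of 4 group means to all 17 libraries with robust dispersion, two-sided F tests of 5 contrasts, and Benjamini-Hochberg adjustment over all genes kept, called at an adjusted p under 0.05. SE is the size of the log2 fold change divided by the square root of F. Levels are CPM on effective library sizes, and the per-library mean log2 CPM used a prior count of 2. Lengths are union exon lengths of GENCODE M21, and gene places and promoter windows are RefSeq's for GRCm38.p6. Sequence shared between genes was counted as 50-base stretches of transcripts. DESeq2 1.42.0, limma-voom (limma 3.58.1) with quality weights, other filters and scalings, fits to fewer libraries, a replicate block and leaving out each library were alternatives. Where a test compares groups, WT rim's 2 libraries share the spread of the other groups.

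In a simulation of the WT site contrast on 20137 genes, 100 genes were changed by a log2 of 1 and 100 by 2. They were drawn from genes above a minimum level and changed in WT rim only, with no other difference between groups. The fit recovered 21% of those changed by 1 and 77% of those changed by 2, with 2 false calls. The real contrast had 777 calls, so these shares need not hold for it. The genes of the set, the further lists (glycolysis isozymes, pyruvate dehydrogenase complex, HIF machinery, HIF targets, pentose phosphate, growth signalling, cell cycle) and the marker lists were chosen with earlier results of these data known. Values per library are given for genes called in a site contrast and for the pyruvate dehydrogenase switch and oxygen-sensing genes. For KO core these are the lowest, median and highest. Other genes are given by range and count. From further lists at most 4 called genes per direction are named by size. Remaining marker lists (red blood cells, natural killer cells, neutrophils, dendritic cells, fibroblasts and mural cells, endothelium, B and plasma cells) had no called gene in any contrast. Their levels could still differ widely between libraries of a group. Dendritic cell markers, for example, summed to 67.77 to 1606 CPM in WT core, 49.66 to 1862 in KO core and 49.36 and 1186 in WT rim.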

Additional observations from a re-analysis of the deposited data

Results flagged for a closer look

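Over the 34 genes and the 3 groups of 4 or more libraries, 102 gene and group pairs were checked for a library far from the others, and 11 stood apart by Dixon's test at the 95% level. Chance alone gives about 1 in 20 where values are normally distributed and pairs independent. CPM need not be normal and these pairs share libraries, so the 11 are not read as an excess. KO core F318 gave 4 of the 11: Slc2a3 at 295 CPM (the others 172 to 212), Ldhb at 76.5 (8.67 to 21.98), Pfkm at 6.89 (11.2 to 12.4) and Hilpda, a lipid droplet protein, at 45.9 (102 to 119). WT core H876 gave 2: Pfkfb3 at 160 CPM (65.4 to 83.7) and Adm at 6.75 (0.416 to 2.003). Dendritic cell markers summed to 1862 CPM in F318, where the other KO core libraries held 49.66 to 392.5. They summed to 1606 CPM in H876, where the other WT core libraries held 67.77 to 380.7. The part of such cells in the flags was not tested. In WT core, Gpi1 was low in F164 at 408 CPM (491 to 504) and Egln1 was high in H719 at 33.2 (12.2 to 15.8). Bnip3 was high in KO core F319 at 99.6 CPM (30.8 to 54.8). In KO rim, Slc2a1 was high in F86 at 131 CPM (94.96 to 99.96) and Pgam1 was low in F322 at 32.9 (57.1 to 61.0).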

How the results depend on the processing

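In the WT site contrast, edgeR called 12 of the 34 genes, DESeq2 14 and voom 9. Fitting only the 2 WT groups called 7, the libraries without Y-linked reads 10, and leaving out 1 library at a time 6 (without WT rim H874) to 13. Aldoa, Tpi1, Pgk1, Pgam1, Pkm and Pdp1 were called in all 15 alternative settings, Pfkl in 14, Gpi1 and Eno1 in 13, Slc16a3 in 12, Ldha in 10 and Bnip3 in 6. The site contrast in KO had 0 calls, and 2 with DESeq2. KO against WT in rim had 0 calls, 4 with DESeq2 and 0 to 3 when 1 library was left out, 3 without KO rim F322. The difference of the site effect had 0 calls, 5 with DESeq2 and 0 to 3 when 1 library was left out, again 3 without KO rim F322. KO against WT in core had 0 in every setting run. The cause of these changes was not tested. No called value changed sign in any setting, and scaling by RLE moved the median of all genes by at most 0.0076.

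Over all genes, the 777 calls of the WT site contrast (422 higher and 355 lower) became 1907 with DESeq2 (1181 and 726), 139 with voom (40 and 99), 91 with only the WT groups (72 and 19), 313 without Y-linked libraries, and 68 without WT rim H874. Other counts were 35 (DESeq2) and 2 (voom) for the site contrast in KO, and 9 (DESeq2) between genotypes in core. Between genotypes in rim there were 269 (DESeq2), 6 (voom), 2 (no filter on low counts), 1 (at least 1 CPM in 2 libraries) and 0 to 26 when 1 library was left out. The difference had 160 (DESeq2), 4 (no filter) and 0 to 14.

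Libraries F322, F86 and O share identifiers between KO core and KO rim, and their deviations from the group means correlated by 0.0449 to 0.0818. Each of these 3 KO core libraries correlated best with the rim library of its own identifier, and 1 of the 3 KO rim libraries with the core library of its own. The shared identifiers come from the labels, which do not say that they mark animals. Y-linked reads were present at both sites for F322 and O. They were absent at both for F86, as in F15, F219, F318 and F319. Whether these libraries are pairs is thus not settled, and the main test treated them as unpaired. With the identifier as a replicate block, 11 of the 34 genes were called in the WT site contrast (Bnip3 was not) and 0 in each of the other 4, with 2 calls over all genes for KO against WT in rim and 1 for the difference. WT rim, with 2 libraries, limits the WT site contrast, KO against WT in rim and the difference.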

Other observations

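The balance of the 2 lactate carriers was read per library after its values had been seen, with no test. The ratio of Slc16a3 to Slc16a1, per kb of exon, was 0.392 to 0.934 in WT core and 0.337 to 0.564 in KO core. It was 0.0449 and 0.162 in WT rim. In KO rim it was 0.363 in F15, 0.416 in O, 0.108 in F322 and 0.126 in F86. F15 and O thus lay in the range of KO core and F322 and F86 in that of WT rim. Macrophage and monocyte markers divided KO rim in the same way, at 4642 CPM in F15, 8446 in O, 1361 in F322 and 938.5 in F86. Their part in the ratio was not tested.

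All 34 genes together took 0.82 to 1.06% of the counts in WT core, 0.836 to 0.937% in KO core, 0.588 to 0.766% in KO rim, and 0.5575 and 0.5619% in WT rim.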
